A study of Mus musculus with 24 samples.

Results

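The change by day 7 after kidney ischemia was compared between RNA pulled down with tagged ribosomes and the RNA left behind. For each gene the quantity is a difference of differences: bound minus unbound at day 7, minus bound minus unbound in sham, on log2 values. The comparison is between 12 of the 24 libraries of the series, from 6 mice, while the day 2 and day 14 libraries entered the fit to share in its error. It took every gene of the deposited table, 40750 in all, of which 13721 passed a filter of at least 1 RPKM (reads per kilobase of transcript, scaled to the reads of the library) in at least 3 libraries. Bound and unbound RNA were paired within a mouse by replicate number, 1 to 3.

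All mice were male, 8 to 10 weeks old, on a mixed background and of genotype Kim1-GCE+/-; EGFPL10a+/-, so that day 7 and sham mice carry both alleles in 1 copy. Tamoxifen (the series text spells it taxomifen) was given 6 h before and 24 h after injury. The 4 groups, with 3 libraries each, were bound RNA at day 7 (D7 IRI Bound), unbound RNA at day 7 (D7 IRI Unbound), sham bound RNA and sham unbound RNA. In the day 7 mice both renal pedicles were clamped for 20 min, while sham mice had the same surgery without the clamp. The sources used here do not say on which day sham kidneys were taken. Bound RNA came off beads coated with antibody against GFP, and the labels treat the unbound RNA as the whole kidney.

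Translating ribosome affinity purification marks ribosomes with a GFP-fused L10a protein, so that an antibody against GFP brings down messages being translated in the marked cells. KIM-1, the product of Havcr1, is a phosphatidylserine receptor that proximal tubule cells place on their surface after injury and that lets them take up dying neighbours. The proximal tubule reabsorbs most filtered glucose, amino acids and phosphate, burns fatty acids for energy, and is the segment most prone to ischemic damage. The tag therefore depends on a promoter that is nearly silent in the healthy kidney, which limits the sham bound group as a model of healthy tubule. The genotype names Kim1-GCE and EGFPL10a as separate alleles, and how the level of the tag relates to Havcr1 at harvest was not tested.

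Havcr1 was lowest in sham bound RNA. It had 131, 132 and 248 RPKM in day 7 bound RNA and 38.1, 54.9 and 125 RPKM in day 7 unbound RNA, against 1.51, 1.49 and 5.61 RPKM in sham bound RNA and 4.32, 3.93 and 24.1 RPKM in sham unbound RNA. Bound exceeded unbound in all 3 day 7 mice and fell below it in all 3 sham mice. The phosphate carrier Slc34a1, a defining proximal marker, was lower in bound than in unbound RNA in both groups: 443, 628 and 538 RPKM in day 7 bound and 1089, 1082 and 1027 RPKM in day 7 unbound, against 605, 528 and 538 RPKM in sham bound and 1295, 1256 and 1466 RPKM in sham unbound.

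The sequences around a start of Havcr1, of Ubd and of Lcn2 are shown. They place the gene that drives the tag beside Ubd and Lcn2, whose changes differed between the fractions in opposite directions. They are 300 bases each, 250 before and 50 after a transcription start, from the RefSeq promoter table of build GRCm38.p6. Capitals mark a match of TGANTCA in the Havcr1 window and of the kappa-B motif in the Ubd window. TGANTCA is a loose form of the AP-1 site, with its middle letter free. The Havcr1 match begins 10 bases after the start, in transcribed sequence, and overlaps an ATG. The Ubd match begins 15 bases before the start. Which of its 3 starts Havcr1 uses in these kidneys was not tested. The windows are chr11:46750918-46751217 on the + strand (the most downstream of 3 Havcr1 starts), chr17:37193642-37193941 on the + strand and chr2:32387690-32387989 on the - strand.
Havcr1: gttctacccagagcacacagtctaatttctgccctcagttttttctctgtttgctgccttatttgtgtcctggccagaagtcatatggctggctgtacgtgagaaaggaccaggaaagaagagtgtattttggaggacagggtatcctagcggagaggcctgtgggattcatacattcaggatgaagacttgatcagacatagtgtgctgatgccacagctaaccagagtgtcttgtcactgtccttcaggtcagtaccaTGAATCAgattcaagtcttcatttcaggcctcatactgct
Ubd: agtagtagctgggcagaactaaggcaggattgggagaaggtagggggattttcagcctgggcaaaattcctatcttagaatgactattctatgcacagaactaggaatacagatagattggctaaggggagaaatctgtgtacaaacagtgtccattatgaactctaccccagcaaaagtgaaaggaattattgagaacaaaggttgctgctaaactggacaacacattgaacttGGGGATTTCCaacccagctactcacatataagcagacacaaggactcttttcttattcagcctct
Lcn2: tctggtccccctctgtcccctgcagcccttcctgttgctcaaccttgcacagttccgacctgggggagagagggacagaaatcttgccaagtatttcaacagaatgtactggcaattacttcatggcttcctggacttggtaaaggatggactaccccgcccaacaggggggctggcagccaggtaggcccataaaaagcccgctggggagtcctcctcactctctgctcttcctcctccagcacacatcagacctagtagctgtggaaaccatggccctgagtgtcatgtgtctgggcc

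Both strands were searched for 4 motifs: the AP-1 form TGANTCA as above, the TATA box form TATAAA with no letter free, the HNF4 site form CAAAGTCCA and the kappa-B motif. The Lcn2 window held none of these letters. Promoters were matched by symbol for 9908 tested genes. The kappa-B motif was in 7.02% of the 242 promoters of genes with a higher difference of differences and in 8.42% of the 297 with a lower one, beside 6.28% of all. TGANTCA was in 10.7% of the higher and 6.40% of the lower genes, beside 6.43% of all. TATAAA was in 11.98% of the higher and 10.8% of the lower genes, beside 9.08% of all. CAAAGTCCA was in 5 promoters of each set, 2.07% of the higher and 1.68% of the lower genes, beside 0.596% of all. A match describes the letters of the window and is not a site.

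Inferred depth ran from 15.7 to 24.7 (in units of 1e+06 reads) over the 24 libraries. Correlations of log2 values across genes between libraries of a group were 0.972 to 0.978 in day 7 bound, 0.977 to 0.979 in day 7 unbound, 0.929 to 0.972 in sham bound and 0.972 to 0.977 in sham unbound. The third sham bound library stood apart, with more RNA of podocytes and collecting duct: Aqp2, the vasopressin-regulated water channel, had 350 RPKM there and 39.2 and 114 RPKM in the other two. Within a mouse, bound and unbound RNA correlated at 0.949 to 0.958 at day 7 and at 0.908 to 0.914 in sham. The labels call the mice biological replicates, and within a group they have no order.

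By day 7 more genes were called in bound than in unbound RNA, and for 722 genes the difference between the changes passed the test. The difference of differences was higher for 334 genes and lower for 388, out of 13721 (limma with mouse as a block, Benjamini-Hochberg adjusted p under 0.05). That is a background of 5.26% of genes called, 2.43% higher and 2.83% lower. Its median over all genes was -0.09, with a median standard error of 0.33. At an unadjusted p under 0.05 there were 3826 genes. Of the 722, 672 differed by at least 2-fold and 82 by at least 4-fold, beside 2076 and 124 of all 13721 genes. The smallest differences called were 0.79 and -0.81, so the test itself leaves few calls under 2-fold.

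How many genes pass depends on single mice. Leaving out any of the 3 day 7 mice left 2 calls, Slc51b and Spire2. Leaving out sham mouse 1, 2 or 3 gave 191, 6 or 1262, and without pairing the fractions of a mouse there were 20. Without the third day 14 mouse, which adds only to the error, there were 1111, and with the 12 libraries of day 7 and sham alone there were 1555. Every other gene given below as passing loses its call in at least 1 of these refits. All 722 kept their sign, which these refits could not have changed. Their mice do not overlap between day 7 and sham, and dropping the pairing or the other days leaves the estimate as it is. In bulk RNA, fewer cells of a type and less RNA per cell cannot be told apart.

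On either side of the comparison, bound RNA at day 7 against sham had 3116 genes called (22.7%), 2080 higher (15.2%) and 1036 lower (7.55%). Unbound RNA had 150 (1.09%), 125 higher (0.911%) and 25 lower (0.182%). At an unadjusted p under 0.05 (limma) there were 4911 bound and 2097 unbound genes, so few unbound calls do not mean an unchanged kidney. Leaving out day 7 mouse 1, 2 or 3 gave 1965, 1740 or 1651 bound and 59, 36 or 17 unbound calls, and leaving out sham mouse 1, 2 or 3 gave 1753, 1799 or 3685 bound and 34, 30 or 55 unbound calls. The 12 libraries alone gave 4367 bound and 1134 unbound calls, and with no filter on low values there were 2531 bound and 53 unbound calls. These 2 contrasts were fitted without a block, since day 7 and sham mice are different animals. The median log2 change of all genes was 0.13 in bound and 0.18 in unbound RNA, and both were -0.03 after median-ratio rescaling, so changes stand against that shift. Rescaling also turned the share of bound calls that were higher to 47.2%, against 66.8% as deposited, and moved that of the difference of differences to 56.8%, against 46.3%.

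Among the 334 genes with a higher difference, 268 were called higher in bound RNA (beside 15.2% of all genes) and none lower (beside 7.55%). In unbound RNA 13 of them were called higher (beside 0.911%). Among the 388 with a lower difference, 253 were called lower in bound RNA and 1 higher. Both sets were picked on bound change minus unbound change, so the direction of their bound calls follows largely from that choice. The fractions lay further apart in sham: the median size of bound minus unbound was 0.30 at day 7 and 0.49 in sham over all genes. For the 334 higher genes the median bound minus unbound difference was 0.08 at day 7 and -1.34 in sham, and for the 388 lower genes it was -0.11 at day 7 and 1.32 in sham. The gap was the wider one in sham for 87.1% of the higher and 79.9% of the lower genes, beside 65.5% of all genes. Of the 722 genes together, 83.2% had the wider gap in sham. All 722 had per-mouse differences that did not overlap between day 7 and sham, as had 37.1% of all genes tested.

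**Figure D1:**
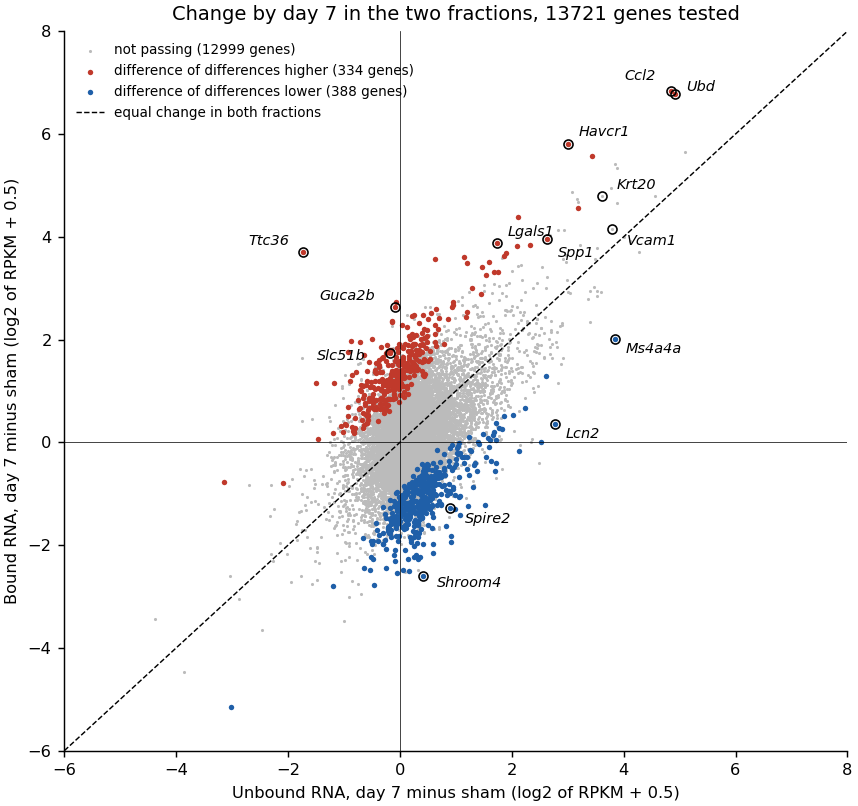
Log2 change from sham to day 7 of each of 13721 genes in unbound RNA (horizontal axis) and bound RNA (vertical axis), with the 334 genes whose difference of differences passed higher in red and the 388 that passed lower in blue. Most coloured genes sit near 0 on the horizontal axis and away from 0 on the vertical one, while Ccl2, Ubd and Havcr1 lie above the dashed line of equal change with large changes in both fractions.

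Slc51b and Spire2 had the smallest p of all genes and were singled out after their values were seen. Slc51b encodes the beta subunit of a basolateral transporter of bile acids and steroids. It had 83.4, 94.2 and 88.6 RPKM in day 7 bound and 90.6, 94.5 and 93.5 RPKM in day 7 unbound RNA, against 24.9, 24.7 and 29.2 RPKM in sham bound and 99.2, 105 and 114 RPKM in sham unbound RNA. The sham bound libraries were the low ones, and the other 3 groups lay together. Its difference of differences was 1.92 (SE 0.21, adjusted p = 0.00214, limma) and stayed between 1.89 and 1.95 when any one mouse was left out.

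Spire2, an actin nucleation factor, changed in opposite directions and was the one gene called so in both fractions. It had 6.62, 6.81 and 5.41 RPKM in day 7 bound and 4.01, 3.86 and 3.19 RPKM in day 7 unbound RNA, against 16.2, 16.1 and 15.5 RPKM in sham bound and 2.27, 1.75 and 1.30 RPKM in sham unbound RNA. No group overlapped another. Bound RNA fell by 1.28 on the log2 scale (adjusted p = 0.00016, limma) while unbound RNA rose by 0.90 (adjusted p = 0.0242), a difference of -2.18 (SE 0.24, adjusted p = 0.00214).

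**Figure D2:**
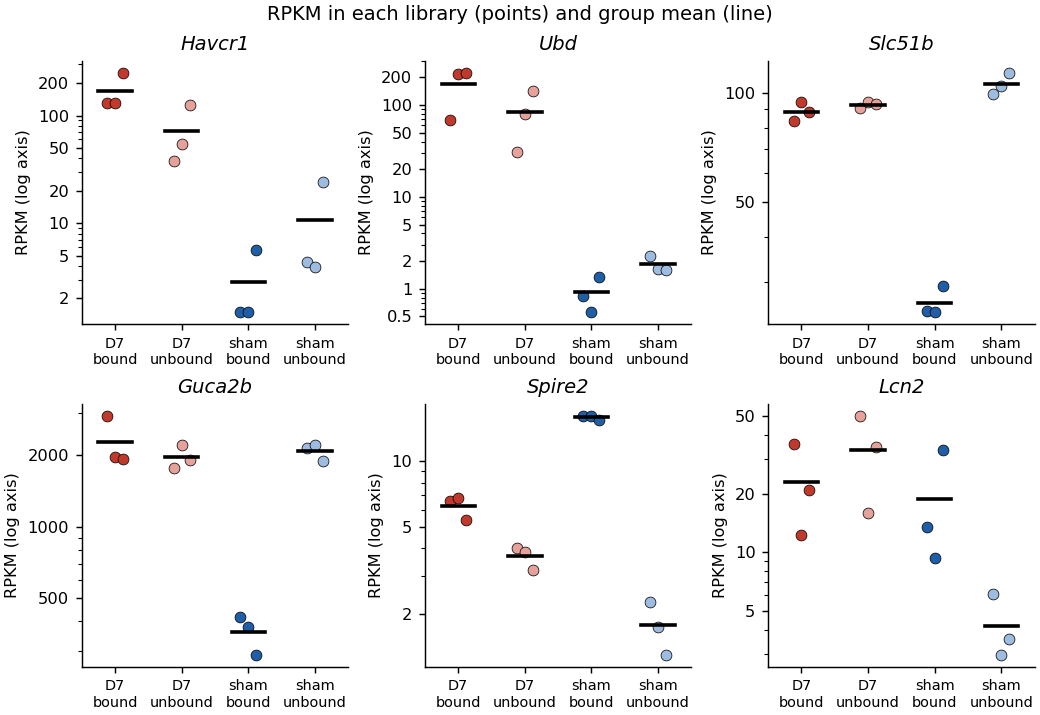
RPKM of 6 genes in each of the 12 libraries on log axes, with a line at each group mean. Slc51b and Guca2b are low in sham bound RNA alone, Spire2 is high there alone, and Havcr1 and Ubd are high in both day 7 groups.

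Markers of tubule injury split in both directions. Of 32 listed genes, all tested, 5 passed higher and 4 lower, 28.1% against the 5.26% of all genes, and the list's median difference was 0.33. Those higher were Havcr1, Tnfrsf12a, Cdkn1a, Spp1 and Itgb6. Those lower were Lcn2, Krt7, Anxa1 and Krt18.

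Havcr1 rose in both fractions, by 5.81 in bound RNA (adjusted p = 5.14e-06, limma) and 3.00 in unbound RNA (adjusted p = 0.0229). Its difference of 2.81 (SE 0.48, adjusted p = 0.0189) was the third largest positive one among the genes named by rule. Part of that size is the sham gap: bound minus unbound was 1.77, 1.26 and 0.99 at day 7, against -1.26, -1.15 and -2.01 in sham. The tag depends on the promoter of this gene, and whether bound Havcr1 can be read independently of the tag was not tested.

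Tnfrsf12a, the receptor for the cytokine TWEAK, had 128, 131 and 170 RPKM in day 7 bound and 53.2, 54.0 and 87.6 RPKM in day 7 unbound RNA, against 18.6, 9.71 and 11.5 RPKM in sham bound and 30.1, 15.0 and 24.9 RPKM in sham unbound RNA. Bound lay above unbound in each day 7 mouse and below it in each sham mouse, a difference of 1.95 (SE 0.34, adjusted p = 0.0199, limma). Spp1, the secreted phosphoprotein osteopontin, reached 3538, 2390 and 4947 RPKM in day 7 bound and 2894, 1786 and 4270 RPKM in day 7 unbound RNA, against 193, 206 and 283 RPKM in sham bound and 328, 503 and 557 RPKM in sham unbound RNA. Both fractions rose well clear of sham, and the difference between them was smaller than either change, 1.32 (SE 0.36, adjusted p = 0.0483).

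Lcn2, the iron-carrying protein NGAL that is measured in urine as a sign of kidney injury, went the other way. It had 35.8, 12.2 and 20.96 RPKM in day 7 bound and 50.3, 15.8 and 34.6 RPKM in day 7 unbound RNA, against 13.4, 9.36 and 33.6 RPKM in sham bound and 6.07, 2.97 and 3.56 RPKM in sham unbound RNA. The bound groups overlapped, while the unbound groups did not. Unbound RNA rose by 2.76 (adjusted p = 0.043, limma) and bound RNA did not pass (0.36, adjusted p = 0.726), a difference of -2.40 (SE 0.42, adjusted p = 0.0199).

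The simple-epithelium keratin Krt18 was similar. It had 182, 190 and 243 RPKM in day 7 bound and 92.0, 66.7 and 93.7 RPKM in day 7 unbound RNA, against 175, 137 and 232 RPKM in sham bound and 29.99, 19.9 and 28.4 RPKM in sham unbound RNA. The unbound groups were apart and the bound groups overlapped, and the difference was -1.48 (SE 0.33, adjusted p = 0.030, limma). Krt7, a keratin of collecting duct and injured tubule, differed by -1.93 (adjusted p = 0.0223) and Anxa1, a phospholipid-binding annexin, by -1.82 (adjusted p = 0.0308). The third sham bound library held the highest bound value of both, 104 RPKM of Krt7 and 62.3 RPKM of Anxa1.

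Other injury genes rose in both fractions without passing the test of the difference. Krt20, a keratin switched on in damaged tubule, rose by 4.79 in bound and 3.62 in unbound RNA, a difference of 1.17 (SE 0.38, adjusted p = 0.0791, limma). Vcam1, an adhesion molecule for leukocytes, rose by 4.15 in bound and 3.79 in unbound RNA, with a difference of 0.36 (SE 0.31, adjusted p = 0.457). Sox9, a transcription factor of regenerating tubule, rose by 3.01 in bound and 2.62 in unbound RNA, with a difference of 0.39 (SE 0.24, adjusted p = 0.301). The per-mouse differences of Vcam1 and Sox9 overlapped between day 7 and sham.

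**Figure D3:**
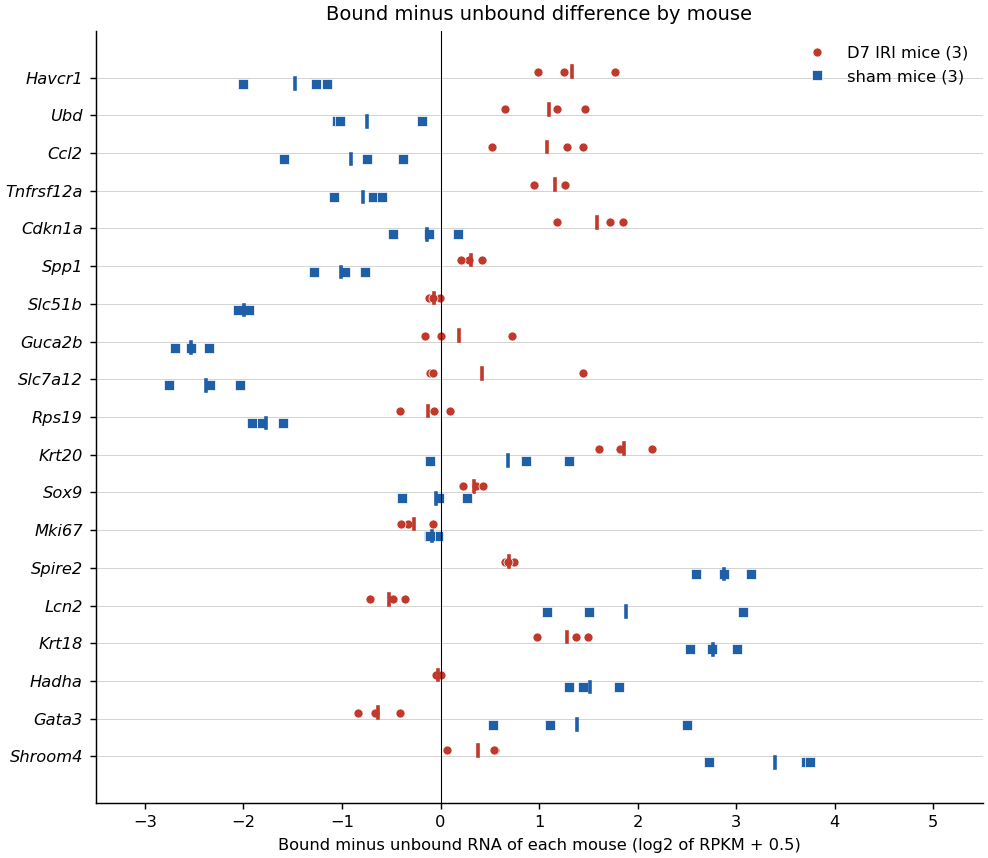
Bound minus unbound difference of each mouse (log2 of RPKM + 0.5) for 19 genes, with day 7 mice as red circles, sham mice as blue squares and a bar at each mean. The day 7 and sham mice lie apart for all but Sox9 and Mki67, and the mice of Slc51b and Spire2 lie close together within each group.

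Of 26 chemokine, cytokine and NF-kB feedback genes tested, 3 passed higher and none lower, 11.5% against 5.26%, with a list median of 0.18. All 3 rose strongly in both fractions. Ubd, the ubiquitin-like protein FAT10 induced by inflammatory cytokines, had 69.4, 219 and 223 RPKM in day 7 bound and 30.4, 78.9 and 141 RPKM in day 7 unbound RNA, against 0.842, 0.555 and 1.35 RPKM in sham bound and 2.28, 1.63 and 1.60 RPKM in sham unbound RNA. Every day 7 library stood more than 10 RPKM above every sham library, and the difference between fractions was 1.85 (SE 0.42, adjusted p = 0.0308, limma).

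Ccl2, the chemokine that draws monocytes, had 56.4, 149 and 166 RPKM in day 7 bound and 20.3, 61.1 and 115 RPKM in day 7 unbound RNA, against 0.345, 1.36 and 0.107 RPKM in sham bound and 2.05, 1.92 and 0.515 RPKM in sham unbound RNA. Bound lay above unbound in each day 7 mouse and below it in each sham mouse, a difference of 1.99 (SE 0.32, adjusted p = 0.0189, limma). Cxcl5, a neutrophil chemokine, differed by 1.51 (SE 0.38, adjusted p = 0.0408), with sham libraries at no more than 0.182 RPKM.

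The p53 target list had 5 of 22 tested members higher and none lower, 22.7% against 5.26%, and a median of 0.59. They were Cdkn1a, Phlda3, Pmaip1, Ccng1 and Plk2. Cdkn1a, which encodes the cell-cycle inhibitor p21, had 52.97, 73.6 and 99.9 RPKM in day 7 bound and 23.1, 20.0 and 29.99 RPKM in day 7 unbound RNA, against 6.92, 5.15 and 2.90 RPKM in sham bound and 9.90, 4.49 and 3.19 RPKM in sham unbound RNA. In sham the fractions were nearly equal, so here the difference of 1.73 (SE 0.42, adjusted p = 0.037, limma) lies mainly at day 7.

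Phlda3, an inhibitor of Akt, had 29.4, 39.8 and 34.6 RPKM in day 7 bound and 13.1, 8.70 and 14.9 RPKM in day 7 unbound RNA, against 3.996, 2.85 and 1.01 RPKM in sham bound and 3.82, 3.32 and 1.95 RPKM in sham unbound RNA. It had the same form, with a difference of 1.76 (SE 0.37, adjusted p = 0.0257, limma). Ccng1, cyclin G1, was of the other kind: 68.4, 68.9 and 72.9 RPKM in day 7 bound and 70.9, 71.1 and 71.0 RPKM in day 7 unbound RNA, against 25.01, 21.2 and 22.9 RPKM in sham bound and 63.8, 48.7 and 47.2 RPKM in sham unbound RNA. Its fractions were equal at day 7, and the sham bound libraries alone were low.

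Genes of late cell cycle showed no detectable difference between the fractions. Of 29 genes of G2 and M phase tested, none passed (limma, 5.26% of all genes), and the median difference was -0.08, close to the -0.09 of all genes. Mki67, a marker of cycling cells, rose by 1.45 in bound RNA (adjusted p = 0.0106, limma) and by 1.64 in unbound RNA (adjusted p = 0.043), a difference of -0.19 (SE 0.25, adjusted p = 0.653). Foxm1, a transcription factor of mitotic genes, did not pass in either fraction, with changes of 0.80 and 0.89 and a difference of -0.09 (SE 0.32, adjusted p = 0.883). Of 29 genes of G1 and S phase, 2 passed lower (6.90% against 5.26%), E2f1 (-1.71) and Rrm1 (-1.10), with a list median of -0.51.

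Proximal transport genes leaned higher. Of 30 tested, 5 passed higher and none lower, 16.7% against 5.26%, with a median of 0.64: Slc7a12, Slc5a10, Slc3a1, Amn and Slc5a1. Their median change was 0.26 in bound and -0.32 in unbound RNA. Slc7a12, an amino acid transporter of the late proximal tubule, had 103, 18.5 and 25.1 RPKM in day 7 bound and 37.6, 20.0 and 26.6 RPKM in day 7 unbound RNA, against 3.65, 7.89 and 4.45 RPKM in sham bound and 20.5, 33.9 and 32.8 RPKM in sham unbound RNA. The sham bound libraries were lowest, and the first day 7 bound library was far above the others. The difference was 2.80 (SE 0.52, adjusted p = 0.0223, limma).

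Markers of the S3 segment, the straight last stretch of the proximal tubule, had a median of 1.31, the highest of the 33 lists. Of 12 S3 markers, 3 passed higher (25% against 5.26%) and 11 were positive, beside 6161 of 13721 of all genes. Those of S1 and S2 had a median of 0.17 with none of 11 passing. Slc34a1 (0.26, SE 0.30, adjusted p = 0.591, limma), the glucose carrier Slc5a2 (0.68, SE 0.36, adjusted p = 0.231) and the endocytic receptor Lrp2, megalin (-0.50, SE 0.29, adjusted p = 0.278), did not pass. Without day 7 mouse 1 the S3 median was 0.83.

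Proximal enzymes were mixed, with 2 of 31 higher and 2 lower (12.9% against 5.26%) and a median of -0.22. Ggt1, the brush border gamma-glutamyltransferase, was higher by 1.36 (adjusted p = 0.0258, limma), and Kap, the androgen-regulated kidney protein, by 1.80 (adjusted p = 0.0478). Hgd, an enzyme of tyrosine breakdown, was lower: 154, 158 and 129 RPKM in day 7 bound and 106, 117 and 94.6 RPKM in day 7 unbound RNA, against 848, 665 and 626 RPKM in sham bound and 146, 135 and 164 RPKM in sham unbound RNA. It was high in the sham bound libraries alone, a difference of -1.79 (SE 0.47, adjusted p = 0.0462).

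Fatty acid oxidation genes fell in bound RNA, where 19 of 33 were called lower (beside 7.55% of all genes) and none higher, with a median change of -1.09. In unbound RNA 1 was called lower (beside 0.182%) and the median was -0.40. The difference passed lower for 3 of 33 (9.09% against 5.26%), Hadha and Ppargc1a among them, with a list median of -0.63.

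Hadha, the alpha subunit of the mitochondrial trifunctional protein, had 34.8, 37.2 and 33.6 RPKM in day 7 bound and 35.8, 38.3 and 33.5 RPKM in day 7 unbound RNA, against 133, 105 and 110 RPKM in sham bound and 37.7, 42.1 and 40.0 RPKM in sham unbound RNA. All groups but sham bound lay between 33.5 and 42.1 RPKM, and the difference was -1.54 (SE 0.33, adjusted p = 0.0279, limma). Ppargc1a, a coactivator of mitochondrial genes, was lower by -1.37 (SE 0.37, adjusted p = 0.0472).

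Glycolysis had 4 of 18 lower and none higher (22.2%), the hexokinase Hk1 and the phosphofructokinases Pfkm, Pfkp and Pfkl, with differences of -1.46, -1.45, -1.40 and -1.13 and a list median of -0.44. Respiratory chain genes of the nucleus split: Ndufa4, Sdha and Ndufs1 encode parts of the chain, and Ndufa4 was higher by 1.59 (adjusted p = 0.0423, limma), Sdha lower (-1.71, adjusted p = 0.0478) and Ndufs1 lower (-1.59, adjusted p = 0.0308), with a median of 0.53 over 35. These calls were 8.57% of the list, beside 5.26% of all genes. With a trend along exon length removed from each library the median was 0.27. NRF2 targets had 2 of 16 higher (12.5% against 5.26%), Gsta1 (1.73, adjusted p = 0.0225) and Gclm (1.24, adjusted p = 0.0262). Gsta1 has close copies in the genome, so its reads may be split among them.

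Cytosolic ribosomal protein genes leaned higher. All but 1 of 36 tested had a positive difference, beside 6161 of 13721 of all genes. Of the 36, 6 passed higher and none lower (16.7% against 5.26%), and the median was 1.07. In bound RNA 33 were called higher (beside 15.2% of all genes), and in unbound RNA none (beside 0.911%). Rps19, a protein of the small subunit, had 55.9, 69.7 and 66.2 RPKM in day 7 bound and 74.5, 65.2 and 69.1 RPKM in day 7 unbound RNA, against 14.8, 17.6 and 17.0 RPKM in sham bound and 53.1, 67.4 and 52.5 RPKM in sham unbound RNA. The sham bound libraries were the low ones (1.65, SE 0.30, adjusted p = 0.0223, limma). The summed level of the list was 7366 to 8582 RPKM in day 7 bound and 9326 to 10314 RPKM in day 7 unbound, against 2595 to 3816 RPKM in sham bound and 7662 to 9674 RPKM in sham unbound RNA. These genes have many processed pseudogenes that can share reads.

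Markers of cells outside the proximal tubule leaned lower. No tested marker of podocytes (13), principal cells (11), intercalated cells (12), endothelium (14) or stroma and pericytes (13) had a positive difference. Of all 13721 genes tested, 6161 had one. List medians were -1.53, -1.84, -0.67, -1.07 and -0.57, with 2, 3, 1, 3 and 2 passing lower and none higher. That is 15.4%, 27.3%, 8.33%, 21.4% and 15.4%, beside 2.83% of all genes passing lower. Without sham mouse 3 the podocyte median was -0.88 and the principal cell median -1.09.

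The summed principal cell level was 146 to 247 RPKM in day 7 bound and 171 to 195 RPKM in day 7 unbound, against 272 to 2156 RPKM in sham bound and 143 to 202 RPKM in sham unbound RNA. Podocyte markers summed to 98.2 to 162 RPKM in day 7 bound and 56.0 to 66.7 RPKM in day 7 unbound, against 295 to 1246 RPKM in sham bound and 57.7 to 66.1 RPKM in sham unbound RNA. Unbound levels overlapped between day 7 and sham, and the sham bound libraries held all values above the rest. Their part in the calls of other genes was not tested.

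Gata3, a transcription factor of collecting duct, had 8.85, 4.81 and 5.18 RPKM in day 7 bound and 11.9, 8.95 and 8.50 RPKM in day 7 unbound RNA, against 11.5, 19.5 and 53.7 RPKM in sham bound and 7.82, 8.76 and 9.04 RPKM in sham unbound RNA. Sham bound was highest and most spread, and the difference was -2.02 (SE 0.41, adjusted p = 0.0257, limma). Atp6v1b1, a proton pump subunit of intercalated cells, had a difference of -2.42 (SE 0.45, adjusted p = 0.0223). Synpo, a podocyte foot process protein, had one of -1.67 (SE 0.36, adjusted p = 0.0286), and Emcn, an endothelial sialomucin, one of -1.28 (SE 0.30, adjusted p = 0.0349). Aqp2 did not pass (-2.19, SE 0.70, adjusted p = 0.0731), nor did the podocyte slit protein Nphs1 (-1.62, SE 0.64, adjusted p = 0.121).

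The loop and distal tubule were less uniform, and each of their lists had 18.2% called, beside 5.26% of all genes. Of 11 thick ascending limb markers, the potassium channel Kcnj1 passed lower (-1.39, adjusted p = 0.0267, limma) and the claudin Cldn10 higher (1.06, adjusted p = 0.0392), with a median of -1.02. Umod, uromodulin, did not pass (-1.06, SE 0.38, adjusted p = 0.0966). Of 11 distal convoluted tubule markers, the calcium-binding Calb1 (-1.61, adjusted p = 0.037) and the thiazide-sensitive carrier Slc12a3 (-1.46, adjusted p = 0.0393) passed lower, and the median was -0.86.

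Of 19 macrophage and monocyte markers, none passed in either direction, with a median of -0.52. Their summed level was 280 to 424 RPKM in day 7 bound and 591 to 1291 RPKM in day 7 unbound RNA, against 51.4 to 98.4 RPKM in sham bound and 102 to 161 RPKM in sham unbound RNA. Both fractions were above sham, with bound below unbound. Cd68, a lysosomal marker of macrophages, had a difference of 0.28 (SE 0.56, adjusted p = 0.768, limma). Ms4a4a, another macrophage gene, singled out after its values were seen, rose in both fractions and more in unbound RNA (2.01 in bound and 3.85 in unbound), a difference of -1.83 (SE 0.42, adjusted p = 0.0311).

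Of 27 matrix genes tested, 11 were called higher in bound RNA (beside 15.2% of all genes) and 4 in unbound RNA (beside 0.911%). Their median change was nevertheless the larger one in unbound RNA, 1.80 against 1.47 in bound RNA. Col3a1, for example, rose by 3.36 in unbound RNA without being called and by 2.79 in bound RNA with a call. The difference passed for 3 of 27 (11.1% against 5.26%): Sparc (-1.56, adjusted p = 0.0344, limma) and the collagen cross-linker Lox (-1.36, adjusted p = 0.0408) lower, and the growth factor Tgfb2 higher (1.23, adjusted p = 0.0493). Col1a1, a chain of type I collagen, had a difference of -0.45 (SE 0.44, adjusted p = 0.526). The interferon and antigen presentation list had 1 of 26 lower (3.85% against 5.26%), Ifit1 (-1.50, adjusted p = 0.0371), and a median of -0.62. None of 17 complement genes passed, with a median of -0.42. Some lists had a single gene passing, a share near the 5.26% of all genes. Of 18 immediate early genes Dusp1 passed lower (-1.03, 5.56%), and of 15 EGFR ligands and YAP targets Lats2 passed lower (-1.22, 6.67%). Of 20 genes of the unfolded protein response Manf, a secreted stress factor, passed higher (1.05, 5%). Of 19 nephron transcription factors Tfap2b, a factor of the distal nephron, passed lower (-1.51, 5.26%). Of 11 lymphocyte markers the B-cell genes Ighm and Cd79b passed lower (-2.73 and -2.11, 18.2%).

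**Figure D4:**
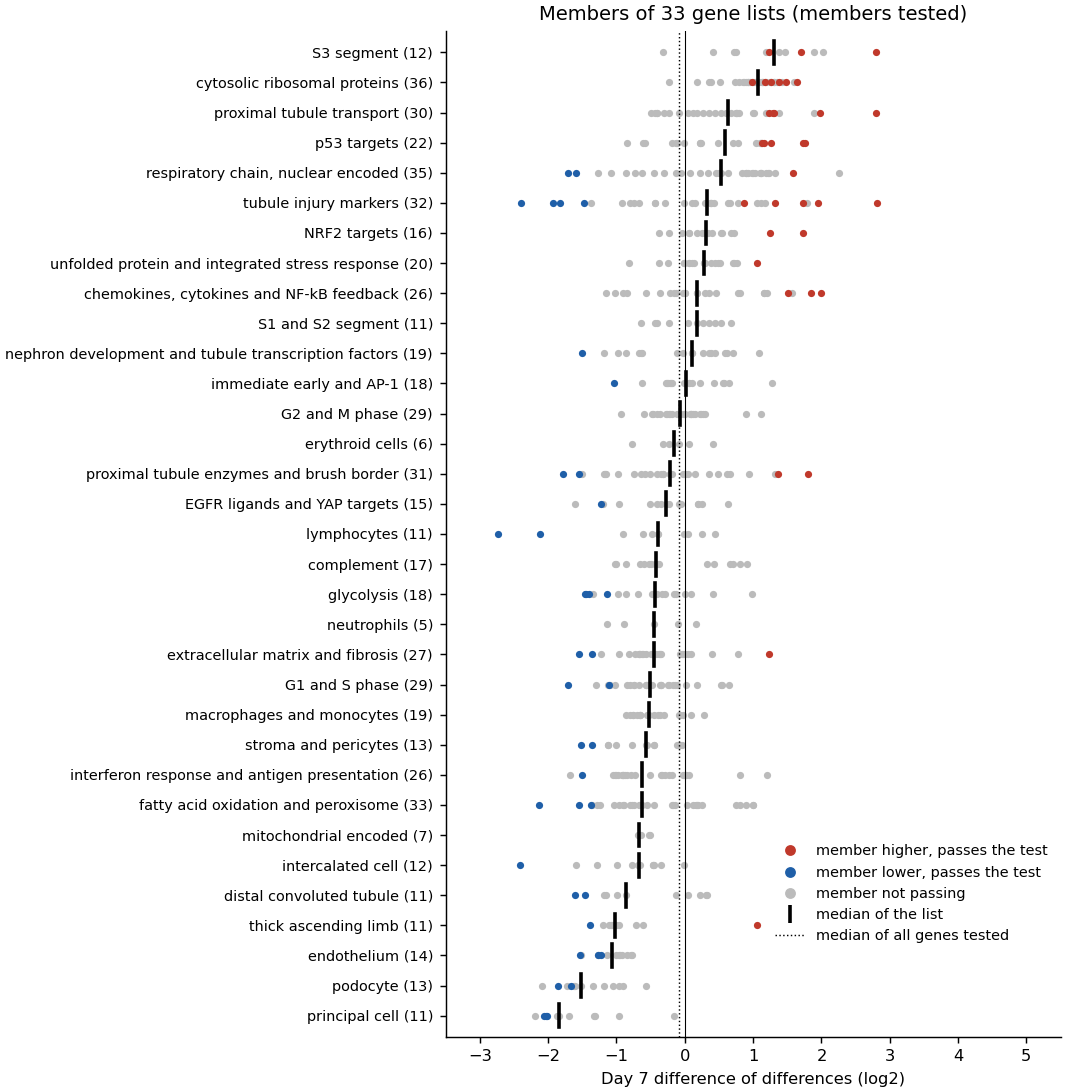
Difference of differences of each tested member of 33 gene lists (log2), ordered by the list median (black bar), with members passing higher in red, passing lower in blue and not passing in grey. S3 and ribosomal protein genes lie furthest right, with medians of 1.31 and 1.07, and podocyte and principal cell markers furthest left, with medians of -1.53 and -1.84.

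Several of the largest positive differences outside these lists were those of genes much lower in sham bound RNA than in the other groups. Guca2b, the natriuretic peptide uroguanylin, had 2923, 1963 and 1919 RPKM in day 7 bound and 1767, 2191 and 1908 RPKM in day 7 unbound RNA, against 417, 380 and 290 RPKM in sham bound and 2133, 2202 and 1880 RPKM in sham unbound RNA. Only sham bound stood away, and the difference was 2.72 (SE 0.45, adjusted p = 0.0189, limma). Calml4, a calmodulin-like brush border protein (2.50), Tmigd1, an adhesion protein (2.50), and Spink1, a trypsin inhibitor (2.48), had the same form. Apoc3, an apolipoprotein, differed by 2.84.

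Ttc36, a tetratricopeptide repeat protein, had the largest difference of all, 5.44, and a large error (SE 1.45, adjusted p = 0.0462, limma). It had 1563, 997 and 791 RPKM in day 7 bound and 103, 132 and 73.3 RPKM in day 7 unbound RNA, against 19.2, 152 and 188 RPKM in sham bound and 491, 122 and 625 RPKM in sham unbound RNA. Day 7 bound was high in all 3 libraries, and the sham mice differed widely, with bound minus unbound at -4.64, 0.31 and -1.73.

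The reads of some rule-named genes are uncertain. Serpina1a (2.38) and Serpina1b (2.35) are near-identical copies of alpha-1 antitrypsin that can share reads. Abhd11os (2.48) is an antisense RNA, and with no strand setting given its reads cannot be told apart from those of the gene it overlaps. Fbxl15, an F-box protein, differed by 2.34.

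The largest negative differences belonged mostly to genes high in sham bound RNA. Shroom4, an actin-binding protein, had 3.85, 5.46 and 5.07 RPKM in day 7 bound and 3.67, 3.57 and 3.33 RPKM in day 7 unbound RNA, against 38.6, 40.6 and 19.7 RPKM in sham bound and 2.49, 2.55 and 2.56 RPKM in sham unbound RNA. The 3 sham bound libraries were high, and the other 3 groups lay between 2.49 and 5.46 RPKM. Its difference was -3.01 (SE 0.54, adjusted p = 0.0223, limma).

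The nucleoporin Ranbp2 (-2.66), the anchoring protein Akap8 (-2.60), the GTPase-activating protein Arhgap18 (-2.50) and the cyclic AMP sensor Rapgef3 (-2.49) were likewise highest in sham bound RNA. Krt23, a keratin (-2.73), Zfp185, an actin-associated protein (-2.74), and Scel, sciellin (-2.56), were also high in sham bound RNA. Npy, neuropeptide Y (-2.54), and Tcf21, a transcription factor of podocytes and stroma (-2.50), rested on the third sham bound library, with 40.9 and 122 RPKM there and no more than 7.76 and 14.8 RPKM in the other two. Ighm, the heavy chain of IgM, a B-cell product (-2.73), had its highest bound value, 78.5 RPKM, in the second sham library.

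Besides Spire2, 15 genes were called in both fractions and in the difference, all in one direction in both. Sharing a direction is not particular to them. Of all genes tested, 121 were called in both fractions in one direction, and Spire2 was the 1 called in opposite directions. Of the genes with a higher difference, 13 were called higher in both fractions, among them Havcr1, Ubd, Ccl2, Cdkn1a, Spp1, Cxcl5, Phlda3 and, singled out after their values were seen, Lgals1, Sprr1a, Il1rn, Ptgds and Gc. Lgals1, the lectin galectin-1, had 791, 1035 and 1342 RPKM in day 7 bound and 521, 494 and 812 RPKM in day 7 unbound RNA, against 80.2, 49.7 and 84.3 RPKM in sham bound and 204, 135 and 203 RPKM in sham unbound RNA. Within a mouse, bound minus unbound was 0.60, 1.07 and 0.72 at day 7, against -1.34, -1.43 and -1.27 in sham. The difference was 2.14 (SE 0.41, adjusted p = 0.0225, limma).

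The difference of differences ran with exon length. Genes were split into 10 equal groups by length. Its median was 0.30 in the shortest group and -0.37 in the longest. In the shortest group the median bound minus unbound was -0.25 at day 7 and -0.54 in sham, and in the longest it was 0.03 at day 7 and 0.36 in sham. Of the 1370 shortest genes 76 passed higher (5.55%) and 14 lower (1.02%). Of the 1370 longest 2 passed higher (0.146%) and 76 lower (5.55%). Over all genes tested the shares were 2.43% higher and 2.83% lower.

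Median exon length was 2105 bases for the genes passing higher and 5271 bases for those passing lower, beside 3919.5 bases for all. Across 13700 genes Spearman's rank correlation of length with bound minus unbound was 0.11 at day 7 and 0.35 in sham, as a description over genes that share libraries. After the length trend was taken out of each library, a step added after the data were seen, 671 genes passed, 514 of them among the 722. The median of the ribosomal protein list was then 0.85 and that of the S3 list 1.18. Havcr1 (2.59), Lcn2 (-2.57), Slc51b (1.502) and Spire2 (-2.36) still passed.

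**Figure D5:**
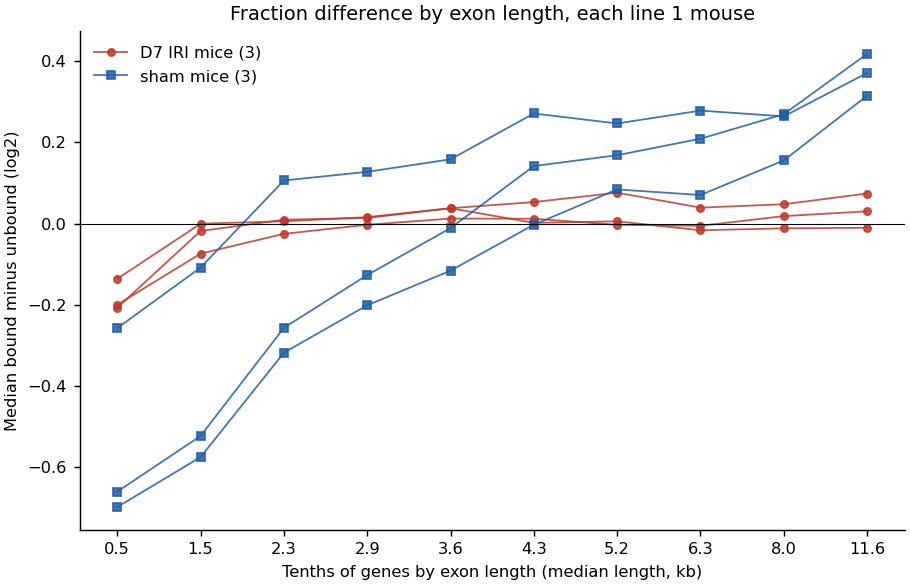
Median bound minus unbound difference (log2) in 10 groups of genes by exon length, with a line for each mouse, day 7 in red circles and sham in blue squares. The sham lines climb from the shortest to the longest genes, and the day 7 lines stay near 0 beyond the shortest group.

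Total RPKM, which is lower where reads fall on longer genes, was 474334 to 492356 in day 7 bound and 506929 to 524280 in day 7 unbound, against 355825 to 398894 in sham bound and 495850 to 514299 in sham unbound libraries. The sham bound range lay below all others. In the day 14 mice the same contrast, with the same sham mice, had 466 genes higher (3.4%) and 396 lower (2.89%). There Havcr1 had a difference of 2.00, Slc51b of 1.98 and Spire2 of -2.12. What part of each call moves with length, with the low Havcr1 of sham mice or with other cell types in the sham bound RNA was not tested.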

How the data were processed

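Bound and unbound RNA of mouse kidney was sequenced in 24 libraries, and the 12 of day 7 and sham were compared. The submitters' processing notes name STAR 2.0.4b, featureCounts 1.4.5 (Subread) and edgeR, whose roles are not spelled out there. The sources used here give neither genome build nor strand setting. The authors' deposited table holds RPKM in 41831 lines; 1081 repeated lines, identical to their first copies, were dropped, which left 40750 genes. Depth was inferred from the spacing of low values with GENCODE M21 exon lengths (40254 genes matched): 74.8% to 79.8% of low values were whole reads within 0.02 reads, where chance gives 4%. RPKM are not counts, so limma 3.58.1 (R 4.3.3) was used on log2(RPKM + 0.5), which understates the fold of low genes.

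The fit of the difference of differences held mouse as a block over 12 mice, with a variance trend and 8 residual degrees of freedom. All 24 libraries entered it, so the day 2 and day 14 mice share in the error. Changes within a fraction came from 8 group means. Benjamini-Hochberg adjustment ran over all genes tested. Numbers pair the fractions: each mouse's bound and unbound RNA came from 1 homogenate, and the deviations of its libraries from their groups correlated at 0.27 to 0.67 in all 12 mice. Pairs of unlike numbers gave -0.20 to -0.08 at day 7 and -0.28 to -0.10 in sham. At day 14 they gave -0.60 to 0.31, the highest of them above the lowest matched value. Deviations cancel out within a group, so unlike pairs turn negative on balance where matched pairs are positive. Their negative values are therefore no separate evidence for the pairing.

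Genes were named by rule: the 12 largest differences in each direction among genes passing, with at least 5 RPKM in 1 group and mice that do not overlap, up to 3 members of each of 33 lists, and 20 fixed genes. Nameless genes were passed over, and some genes the rule selects are not reported here. The lists come from general knowledge. Lists, members and rule were chosen with earlier results of these data known, and no list was tested. Alternatives were pseudocount, filter, scaling, variance trend, libraries in the fit, pairing, left-out mice and removal of the length trend.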

Additional observations from a re-analysis of the deposited data

Results flagged for a closer look

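The change by day 7 differed between bound and unbound RNA for 722 genes, by a test of the difference itself (limma, adjusted p under 0.05). Spire2 (-2.18) and Slc51b (1.92) were the 2 that passed with any one mouse left out. In Spire2 bound RNA fell while unbound RNA rose.

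The same contrast in the day 14 mice, which enter the comparison of day 7 and sham through the error of the fit, had 862 genes called, and that in the day 2 mice had 0 (limma), with 1641 at an unadjusted p under 0.05. These share the sham mice with day 7. Bound minus unbound at day 7 set directly against day 2 and against day 14 gave 0 calls each (limma), with 1288 and 654 at an unadjusted p under 0.05. No formal test for an outlying sample was run on groups of 3.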

How the results depend on the processing

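All 722 calls of the difference of differences kept their sign in each alternative run (609 of 609 that were still tested with a filter of 5 RPKM), but their number moved. The sign could not change with a mouse left out, since the mice of these genes do not overlap between day 7 and sham. Nor could it change with the pairing, the variance trend or the libraries of other days, which leave the estimate as it is. It was 26 with no filter on low values, 455 after quantile normalization, 1555 with only the 12 libraries of day 7 and sham, 20 with no replicate block (8 group means) and 1111 without the third day 14 mouse. With 1 of the 6 mice left out it ran from 2 to 1262. The other settings, both pseudocounts, the higher filter, median-ratio rescaling, no variance trend and removal of the length trend, gave 493 to 1045. Bound calls (3116) ran from 1651 to 3685 with a mouse left out. Unbound calls (150) were 53 with no filter, 1134 with 12 libraries and 17 to 59 with a mouse left out. A replicate block across times, where numbers do not pair mice, gave 3027 bound and 145 unbound calls.

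Reversals were limited to 3 genes that did not pass in the first place. Foxm1 was 0.00025 after quantile normalization and 0.031 without the length trend, Mki67 was 0.070 and Cd68 -0.11 without it, and with a mouse left out Foxm1 ran from -0.22 to 0.035 and Cd68 from -0.24 (without sham mouse 3) over -0.085 (without day 7 mouse 2) to 0.62. Of 1900 values of 112 genes over all settings, 1195 kept direction and call, 686 lost the call, 12 gained it and 7 reversed. Of 561 list medians 25 moved by more than the spread between mice. The cause was not tested. With 3 mice a group the median standard error of 0.33 limits what could be called, and the count of calls depends on the settings.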

Other observations

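The nuclear noncoding RNAs Malat1 and Neat1, singled out after their values were seen, were lower in bound than in unbound RNA in every mouse. Malat1 had bound minus unbound differences of -2.11, -2.12 and -2.87 at day 7, against -1.27, -1.50 and -1.16 in sham, a difference of differences of -1.06 (SE 0.31, adjusted p = 0.0619, limma) that did not pass. Neat1 had -1.50, -1.51 and -1.68 at day 7, against -1.10, -0.31 and -0.42 in sham (-0.95, SE 0.27, adjusted p = 0.0543), and did not pass. Of 7 tested transcripts of the mitochondrial genome, which cytosolic ribosomes do not translate, none passed and none had a positive difference. Their median bound minus unbound was -2.93 at day 7 and -2.26 in sham.

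Among 243 antisense genes, 17 passed higher and 4 lower, 8.64% beside 5.26% of all genes. Their median exon length was 902 bases, and without a strand setting their reads may belong to the genes they overlap.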
